A study of Mus musculus with 8 samples.

Results

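The nuclear genes for subunits of the mitochondrial respiratory chain were followed across conventional dendritic cells (cDC) of the mouse spleen. Members were the protein-coding genes whose symbols begin with Nduf and 1 of the letters a, b, c, s or v before a digit (complex I), are Sdha, Sdhb, Sdhc or Sdhd (complex II), or begin with Uqcr (complex III), with Cox4 to Cox8 (complex IV) or with Atp5 (complex V). The rule used names and no measured value. It found 85 of the 55487 genes counted, 37 in complex I, 4 in complex II, 8 in complex III, 18 in complex IV and 18 in complex V. Of these, 79 had enough counts to be tested. The 8 RNA-seq libraries came from untreated C57BL/6 cells, about 100000 sorted cells each, and formed 4 groups of 2. The groups were wild-type cDC1, wild-type cDC2, cDC1 from Zeb2 -165(d1+2+3) mice and cDC2 from Irf8 +32-/- mice. The cDC1 are known for presenting antigen of other cells to CD8+ T cells, and the cDC2 for priming CD4+ T cells. Both mutant genotypes are named for enhancers, called here the Zeb2 mutant and the Irf8 mutant, and each was profiled in 1 cell type. Sort gates, ages and how many mice stand behind a library were not found in the labels. The p-values therefore measure only the spread between these libraries, which may be technical.

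The respiratory chain sits in the inner mitochondrial membrane. Complex I takes electrons from NADH and complex II takes them from succinate, complex III passes them to cytochrome c, and complex IV hands them to oxygen. Complexes I, III and IV pump protons as they do so, and complex V, the ATP synthase, makes ATP as the protons flow back. Most subunits are encoded in the nucleus, while a core set in complexes I, III, IV and V is encoded by mitochondrial DNA. In dendritic cells, respiration is known to prevail at rest and to give way to glycolysis after strong activation. The transcription factors NRF1, GABPA (an ETS family factor) and YY1 are known to bind promoters of many of these genes.

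The promoter letters of 4 members are shown because they span the large and moderate differences described below and hold or lack the core letters of those factors. They were chosen after the values were seen. Each is the 250 bases before the RefSeq start of the gene on GRCm38.p6, 5′ to 3′ on the gene's strand, with matches in capitals.
Cox7b, chrX:106015450-106015699, plus strand: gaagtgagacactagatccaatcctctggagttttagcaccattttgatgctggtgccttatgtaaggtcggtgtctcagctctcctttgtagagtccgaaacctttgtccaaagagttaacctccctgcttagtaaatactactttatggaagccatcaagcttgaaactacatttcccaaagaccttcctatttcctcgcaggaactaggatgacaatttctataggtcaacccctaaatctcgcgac
Atp5e, chr2:174464102-174464351, minus strand: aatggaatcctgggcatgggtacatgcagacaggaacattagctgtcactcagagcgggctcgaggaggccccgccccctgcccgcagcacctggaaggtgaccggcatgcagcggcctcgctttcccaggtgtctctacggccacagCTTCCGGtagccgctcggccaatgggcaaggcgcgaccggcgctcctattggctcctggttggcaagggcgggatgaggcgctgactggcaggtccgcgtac
Ndufb6, chr4:40279422-40279671, minus strand: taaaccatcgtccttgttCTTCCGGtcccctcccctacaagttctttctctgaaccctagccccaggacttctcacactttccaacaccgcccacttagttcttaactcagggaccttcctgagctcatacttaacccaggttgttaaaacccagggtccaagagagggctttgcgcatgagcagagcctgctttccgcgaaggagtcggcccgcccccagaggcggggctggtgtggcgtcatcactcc
Atp5l, chr9:44920743-44920992, minus strand: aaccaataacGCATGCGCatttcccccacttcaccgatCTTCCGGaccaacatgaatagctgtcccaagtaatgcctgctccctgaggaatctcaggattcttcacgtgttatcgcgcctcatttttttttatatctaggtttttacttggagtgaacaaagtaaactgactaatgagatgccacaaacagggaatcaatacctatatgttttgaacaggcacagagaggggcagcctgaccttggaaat
The capitals in Atp5e, in Ndufb6 and in the second match of Atp5l are the ETS core CCGGAAG, read on the opposite strand. The first match in Atp5l is the 8-base NRF1 core GCATGCGC. Cox7b held none of the motifs searched.

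RefSeq windows of 300 bases, 250 before and 50 after the start, were found for 68 of the 85 members, as 73 windows. The ETS core stood on either strand of 16 member windows (21.9%) and of 8.86% of the 32851 windows of all genes. The 8-base NRF1 core GCATGCGC was in 10 (13.7%, against 2.71%), and the full NRF1 core, which holds those letters, was in 5 (6.85%, against 0.971%). The YY1 core was in 5 (6.85%, against 0.852%). In all, 25 members held at least 1 of these motifs. A match is a description of the letters and not a binding site.

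In every pair of library values below, replicate 2 comes first and replicate 3 next. The libraries held 49380686 to 58611821 counts. Of the 10 cDC1 markers listed, the summed level was 9612 to 12690 CPM (counts relative to library size, scaled here by TMM) in the cDC1 libraries and 1779 to 2021 in the cDC2 libraries, where Wdfy4 made up most of it. The 10 cDC2 markers summed to 31.9 to 40.6 CPM in cDC1 and 1933 to 2122 in cDC2. The 6 monocyte and macrophage markers summed to 49.1 to 72.3 CPM in cDC1 and 751 to 926 in cDC2, mostly Csf1r and Adgre1. Plasmacytoid dendritic cell markers summed to 110.1 to 122 CPM in cDC1 and 176 to 224 in cDC2. The part of these cells in the results was not tested. B cell, T cell and NK cell markers each stayed at or below 87.7 CPM in every library. Of the genes named in the mutant genotypes, Zeb2 was at 2.09 and 2.10 CPM in cDC1 of wild type and at 2.24 and 3.54 in cDC1 of the Zeb2 mutant, where both libraries were higher. Irf8 was at 126 and 104 CPM in cDC2 of wild type and at 147 and 120.0 in cDC2 of the Irf8 mutant, where the libraries overlapped. The wild-type cDC1 pair stood apart from the other pairs. Its replicate 2 had counts for 25993 genes and its replicate 3 for 32358, the lowest and the highest of the 8 libraries, and replicate 2 was above replicate 3 in 75 of 79 members, by a median of 0.33 on the log2 scale. The same median was 0.06 over the 8399 genes at 10 CPM or more. Over those genes this gap fell with exon length (Spearman's rho -0.39, and -0.22 over the members). The same rho was 0.24 in the Zeb2 mutant pair, 0.14 in the Irf8 mutant pair and -1.96e-05 in wild-type cDC2. The counts by complex and by gene list are given below with and without wild-type cDC1 replicate 2.

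Transcripts of the respiratory chain were higher in wild-type cDC1 than in wild-type cDC2. Of the 79 members tested, 62 rose and 0 fell at an adjusted p under 0.05 (edgeR's quasi-likelihood test, Benjamini-Hochberg over 20631 genes), where 14.2% of all tested genes rose and 15.9% fell. The median log2 difference was 0.82 over the members, a 1.77-fold difference, and 0.03 over all tested genes. Both cDC1 libraries lay above both cDC2 libraries in 72 members (32.8% of all genes did so) and below them in 1, Cox6a2 (32.1%). DESeq2 called 63 higher and 0 lower, and its share over all genes is not set beside this here. An unadjusted p under 0.05 in edgeR was reached by 69 members, all with a positive difference. Of the 20631 genes tested, 8246 reached it in either direction. The members together took 0.966% and 0.850% of all counts in wild-type cDC1 and 0.555% and 0.563% in wild-type cDC2. In bulk RNA, a smaller share of cells with a transcript and less of it per cell cannot be told apart. Without wild-type cDC1 replicate 2, 49 of 79 members rose and 0 fell (background 9.04% and 12.7%). By complex, the counts of members that rose were then 21 in complex I, 2 in complex II, 7 in complex III, 7 in complex IV and 12 in complex V, and 0 fell in each.

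Part of this difference followed gene length, a trend over genes in general that also ran between the wild-type cDC1 replicates. Over the 8399 genes at 10 CPM or more, the log2 difference between wild-type cDC1 and cDC2 fell with exon length (Spearman's rho -0.27) and with the length of the principal transcript (rho -0.33 over 8172 genes). Genes under 1 kb in exon length had a median of 0.62 and those over 4 kb a median of -0.18. Members are short: their median exon length was 1495 bases, and 47 of the 79 tested had a principal transcript under 1 kb. With the trend over exon length removed from each library, 43 members rose and 0 fell (background 13% and 16%), 40 of the 43 among the 62. With the trend over principal transcript length removed, an alternative chosen after the data were seen, 30 rose and 2 fell (background 13.7% and 15%), 28 of the 30 among the 62. Such a removal can also take away a true difference that runs along length, and the members were among the genes it was fitted on.

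**Figure D1:**
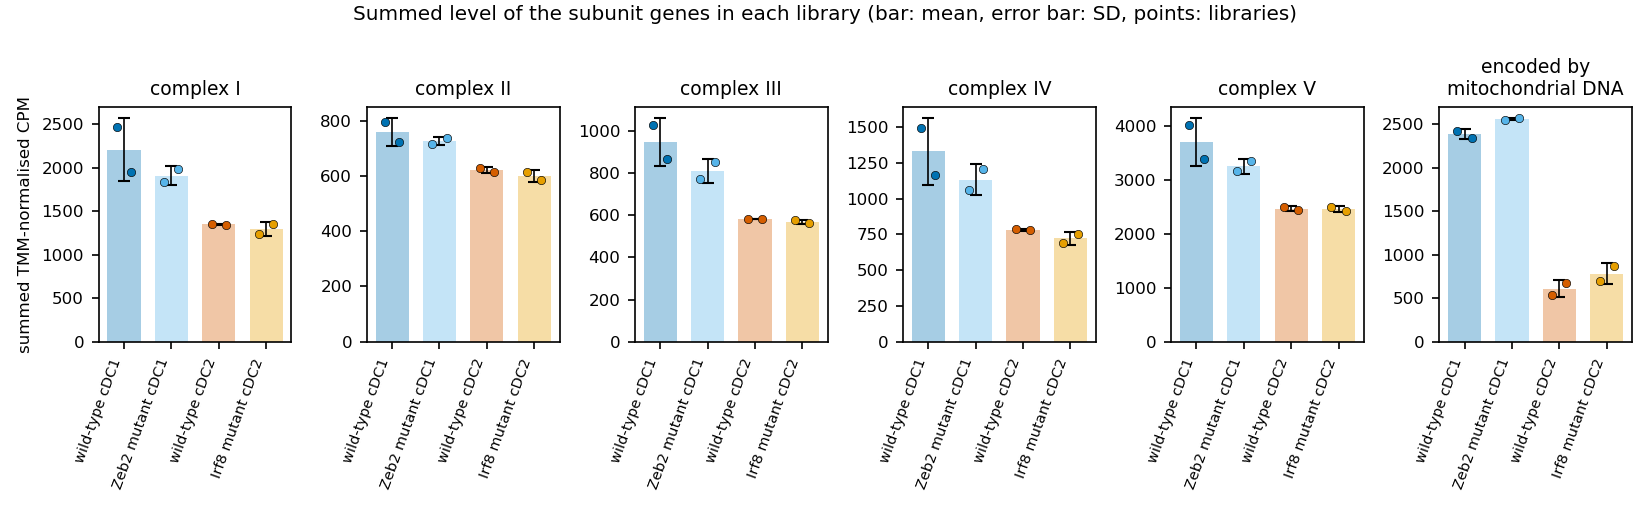
Summed TMM-normalised CPM of the members of each complex, and of the 13 subunits encoded by mitochondrial DNA, in 4 groups. Bars are group means, error bars SD (n = 2) and points the libraries. Every cDC1 library lies above every cDC2 library in all 6 panels, and the 2 wild-type cDC1 points lie far apart in complexes I and IV.

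Summed over their members, complexes I to V all stood higher in cDC1, but not by the same factor. Complex I summed to 2206 ± 361 CPM in wild-type cDC1 (mean ± SD, n = 2) and 1347 ± 5.12 in wild-type cDC2. Complex II summed to 758 ± 50.8 and 620.3 ± 10.8 CPM, the smallest step of the 5. Complex III summed to 948 ± 113 and 581 ± 0.0813 CPM. Complex IV summed to 1329.9 ± 232 and 783 ± 7.03 CPM. Complex V summed to 3696 ± 441 and 2464 ± 44.9 CPM. The mutant cells gave sums in the same order, 7830 ± 424 CPM over all members in cDC1 of the Zeb2 mutant and 5642 ± 35.5 in cDC2 of the Irf8 mutant, against 8938 ± 1198 and 5795 ± 67.9 in wild type.

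**Figure D2:**
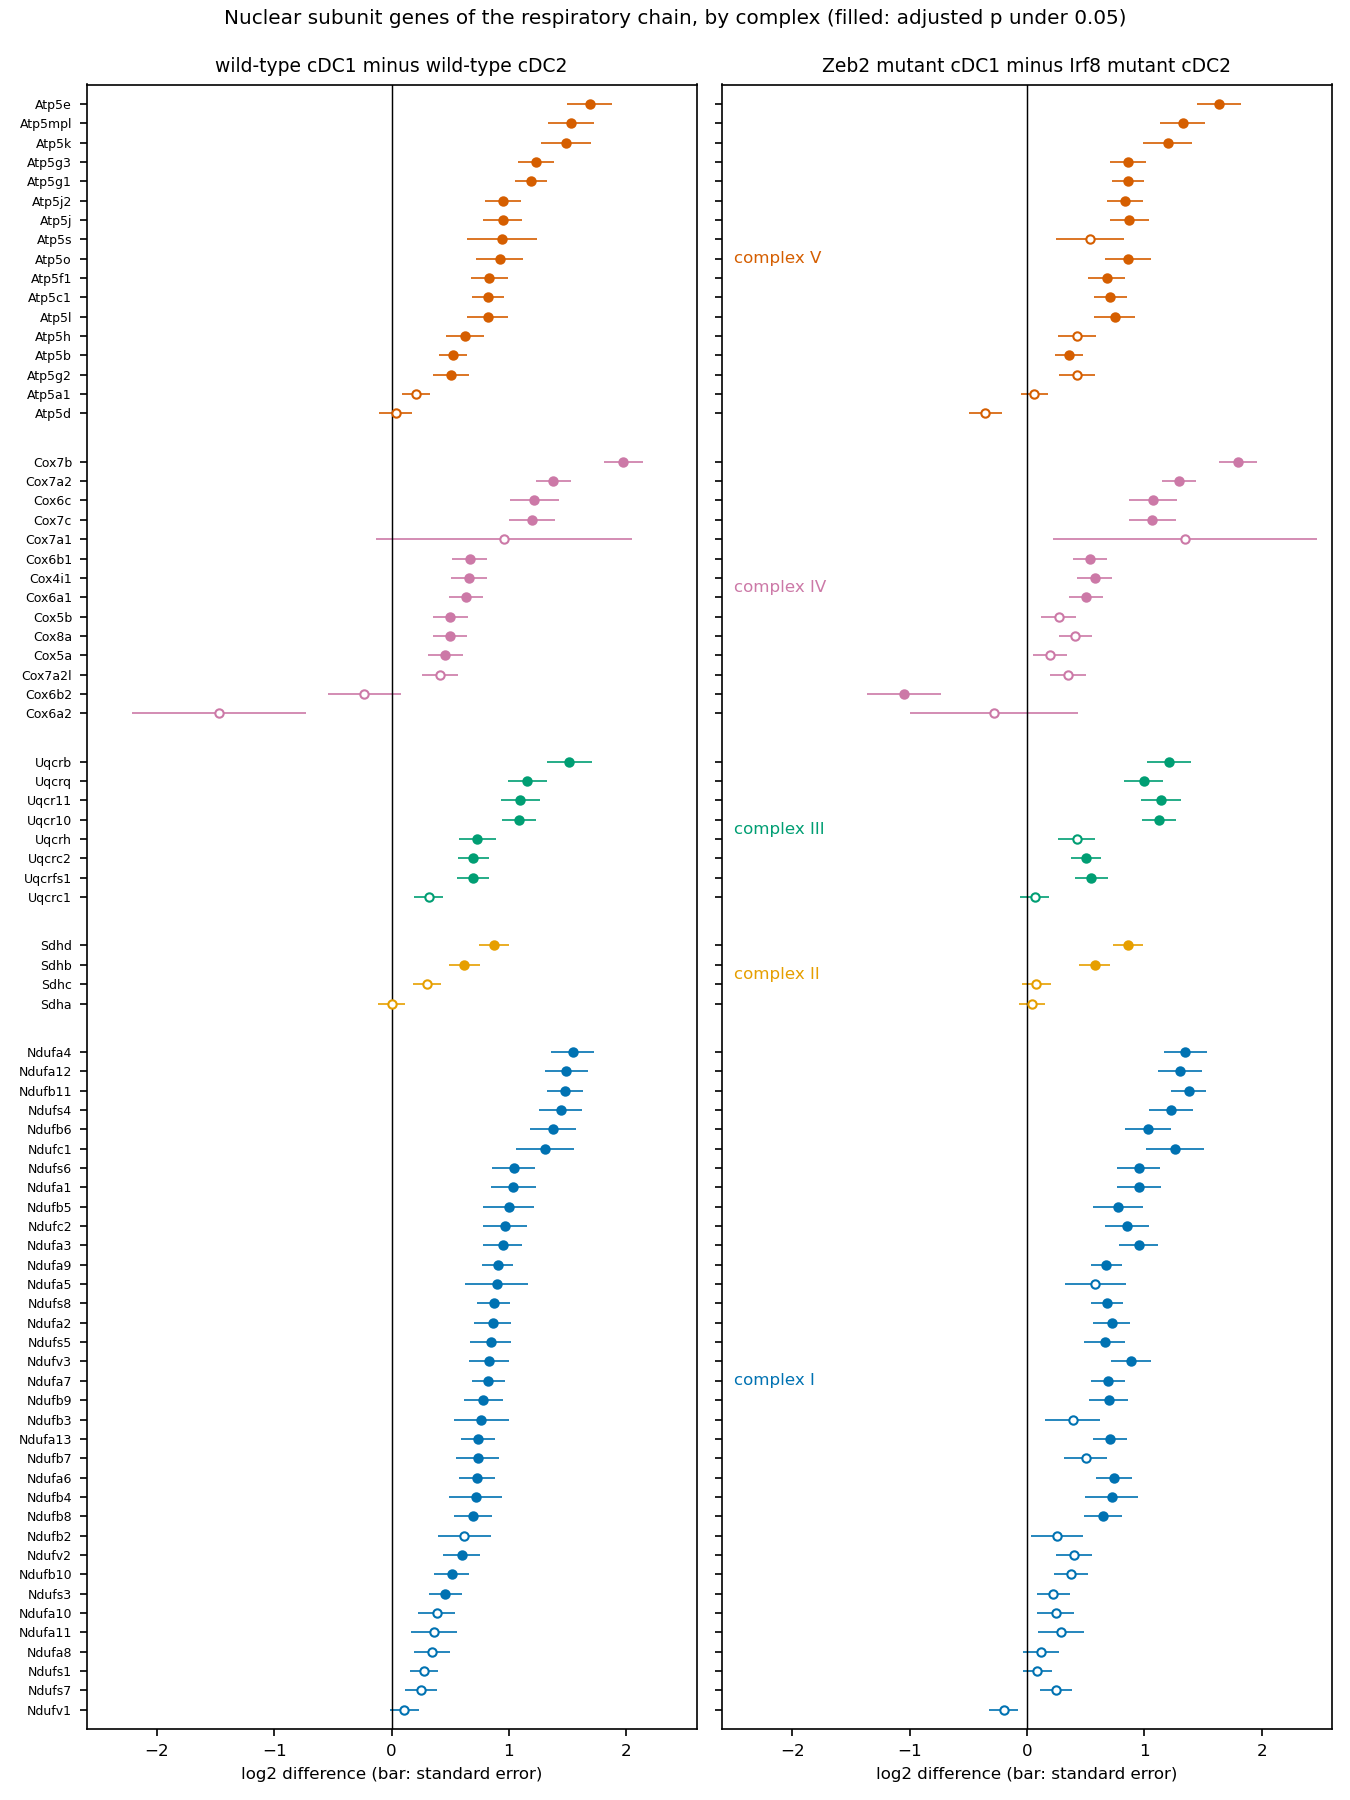
Log2 difference (x axis) of the tested members, 1 of complex I left out, ordered within each complex, for the wild-type comparison (left) and the mutant comparison (right). Points are edgeR estimates, bars standard errors and filled points passed an adjusted p of 0.05. Filled points lie right of 0 except Cox6b2 in the right panel.

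In complex I, 28 of 36 members rose in wild-type cDC1 and 0 fell, with a median log2 difference of 0.80. Ndufb11, an accessory subunit of the membrane arm (ENSMUSG00000031059, chromosome X, 20615326 to 20617619, GRCm38), had the smallest adjusted p of the complex. Its levels were 113 and 88.3 CPM in the wild-type cDC1 libraries and 35.2 and 37.1 in wild-type cDC2. In the mutants it was at 83.5 and 95.1 CPM in cDC1 and 33.2 and 35.5 in cDC2. All 4 cDC1 libraries were above all 4 cDC2 libraries, and the wild-type difference was 2.79-fold (log2 difference 1.48, SE 0.15, adjusted p = 4.38e-05). Ndufa12, an accessory subunit of the peripheral arm, was at 60.9 and 48.4 CPM in wild-type cDC1 against 19.0 and 19.9 in wild-type cDC2, and at 46.5 and 47.6 (cDC1) against 15.97 and 22.2 (cDC2) in the mutants. It too did not overlap between the cell types, and its wild-type log2 difference was 1.49 (SE 0.18). Ndufa4, named for complex I but now regarded as a subunit of complex IV, was at 124 and 85.4 CPM in wild-type cDC1, 34.4 and 37.5 in wild-type cDC2, 90.1 and 98.3 in the cDC1 of the Zeb2 mutant and 33.8 and 40.1 in the cDC2 of the Irf8 mutant. It was 2.91-fold higher in wild-type cDC1 (log2 difference 1.54, SE 0.18, adjusted p = 1.22e-04).

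By FPKM, the deposited level per kilobase of exon, the most abundant complex I members were Ndufa2 and Ndufa1, both small accessory subunits, at 94.1 and 73.9 FPKM over all libraries. Ndufa2 was at 82.1 and 63.8 CPM in wild-type cDC1 against 40.0 and 40.3 in wild-type cDC2, and at 57.9 and 67.6 (cDC1) against 36.4 and 39.8 (cDC2) in the mutants (wild-type log2 difference 0.86, SE 0.16, adjusted p = 0.0019). Ndufa1 was at 49.7 and 35.5 CPM in wild-type cDC1 against 19.9 and 21.6 in wild-type cDC2, and at 38.2 and 40.3 (cDC1) against 17.8 and 22.7 (cDC2) in the mutants (wild-type log2 difference 1.04, SE 0.19, adjusted p = 0.00218). Both genes separated the cell types in every library, yet neither call remained with a length trend removed: adjusted p was 0.258 and 0.0860 with exon length, and 0.956 and 0.979 with principal transcript length. Ndufb6, a membrane arm subunit with the ETS letters in its promoter, was at 24.97 and 19.5 CPM in wild-type cDC1 against 8.09 and 9.08 in wild-type cDC2, and at 16.9 and 18.8 (cDC1) against 8.65 and 8.83 (cDC2) in the mutants, a wild-type log2 difference of 1.37 (SE 0.19). The cell types did not overlap for it. The members of the complex that rose ran from 0.46 (Ndufs3, whose call was lost without any 1 of 5 libraries, adjusted p from 0.0618 to 0.232) to 1.54 (Ndufa4), with Ndufs4, an accessory subunit of the peripheral arm, at 1.44.

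The 7 core subunits of complex I that carry or surround its flavin and iron-sulphur clusters had the smaller differences. This grouping was made after the values were seen and has no test. Their median log2 difference was 0.27, and 3 of 7 rose, against 25 of 29 accessory members with a median of 0.84. Ndufs3 and Ndufv2, with log2 differences of 0.46 and 0.60, did not pass without wild-type cDC1 replicate 2 or without wild-type cDC2 replicate 2. Their log2 differences were 0.42 and 0.38 in the first of these fits and 0.40 and 0.56 in the other. Each such fit leaves 1 library in a group, and the share of all genes called can change as well. The lost calls are thus not a result about the core subunits. Ndufv1, the subunit that binds NADH, had log2 differences of 0.11 in wild type and -0.20 in the mutants, and Ndufs1 had 0.27 and 0.09. Ndufs8 was the exception among the 7, at 120.2 and 101 CPM in wild-type cDC1 against 61.8 and 59.5 in wild-type cDC2 (log2 difference 0.87, SE 0.14, adjusted p = 8.54e-04). The core subunits have exon lengths of 1291 to 8086 bases, and the part of length in their smaller differences was not tested.

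In complex II, 2 of 4 members rose. Sdhd, a membrane anchor (ENSMUSG00000000171, chromosome 9, 50596357 to 50603812), was at 157 and 139 CPM in wild-type cDC1 against 81.0 and 80.4 in wild-type cDC2, and at 131 and 144 (cDC1) against 79.1 and 72.3 (cDC2) in the mutants. The cell types did not overlap, and Sdhd was 1.83-fold higher in wild-type cDC1 (log2 difference 0.87, SE 0.13, adjusted p = 4.71e-04). Sdhb, the iron-sulphur subunit, was at 181 and 152 CPM in wild-type cDC1 against 113 and 104 in wild-type cDC2, and at 147 and 155 (cDC1) against 103 and 99.4 (cDC2) in the mutants (wild-type log2 difference 0.62, SE 0.13, adjusted p = 0.00464). Sdha, the flavoprotein that oxidises succinate, did not separate the groups. Its levels were 391 and 369 CPM in wild-type cDC1, 384 and 376 in wild-type cDC2, 383 and 383 in the cDC1 of the Zeb2 mutant and 381 and 362 in the cDC2 of the Irf8 mutant, with a wild-type log2 difference of 0.00061 (SE 0.11). Sdhc, the other anchor, had a log2 difference of 0.30 (SE 0.12) and did not pass the test (adjusted p = 0.089). By FPKM, Sdha (91.7) and Sdhd (90.5) were the most abundant of the 4.

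In complex III, 7 of 8 members rose and 0 fell, with a median log2 difference of 0.91. Uqcrb, a small subunit near the quinone pocket (ENSMUSG00000021520, chromosome 13, 66900617 to 66905378), was at 123 and 84.6 CPM in wild-type cDC1 against 33.9 and 38.8 in wild-type cDC2, and at 88.4 and 91.1 (cDC1) against 34.5 and 43.0 (cDC2) in the mutants. The cDC1 libraries were all higher, by 2.86-fold in wild type (log2 difference 1.52, SE 0.19, adjusted p = 1.73e-04). Uqcr10, a small subunit and the most abundant of the complex at 87.5 FPKM, was at 78.1 and 66.9 CPM in wild-type cDC1, 34.3 and 34.1 in wild-type cDC2, 61.8 and 69.7 in the cDC1 of the Zeb2 mutant and 27.6 and 32.5 in the cDC2 of the Irf8 mutant (wild-type log2 difference 1.08, SE 0.15, adjusted p = 2.79e-04). Uqcrq, which binds beside cytochrome b, was at 77.5 and 66.3 CPM in wild-type cDC1 against 32.2 and 32.2 in wild-type cDC2, and at 50.5 and 63.9 (cDC1) against 25.6 and 31.8 (cDC2) in the mutants, a wild-type log2 difference of 1.16 (SE 0.17). Uqcr11, another small subunit, was at 56.6 and 50.1 CPM in wild-type cDC1 against 26.8 and 23.04 in wild-type cDC2, and at 40.9 and 52.0 (cDC1) against 19.4 and 22.7 (cDC2) in the mutants, with log2 differences of 1.10 and 1.14. Each of these small subunits stood apart between cDC1 and cDC2 in all libraries. Uqcrfs1, the Rieske iron-sulphur protein, was at 163 and 126 CPM in wild-type cDC1 against 90.1 and 89.0 in wild-type cDC2, and at 126 and 127 (cDC1) against 85.5 and 87.2 (cDC2) in the mutants (wild-type log2 difference 0.69, SE 0.14, adjusted p = 0.00373). Uqcrc1, a large core protein, was the member that did not pass, with log2 difference 0.32, SE 0.13, adjusted p = 0.0862. Cyc1, the cytochrome c1 subunit that the naming rule leaves out, did not pass either, at a mean of 122 CPM in wild-type cDC1 and 100.1 in wild-type cDC2 (log2 difference 0.28, SE 0.13, adjusted p = 0.136).

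In complex IV, 10 of 14 tested members rose and 0 fell. These 10 are widely expressed forms, a grouping made after the values were seen. Fewer of the 10 passed without wild-type cDC1 replicate 2 or without either wild-type cDC2 library. Each such fit leaves 1 library in a group, and no background share is set beside it here. Cox7b (ENSMUSG00000031231, chromosome X, 106015700 to 106022450), a small transmembrane subunit, had the largest difference of all 79 members. It was at 105 and 84.5 CPM in wild-type cDC1, 81.7 and 88.6 in the Zeb2 mutant, against 23.6 and 24.6 in wild-type cDC2 and 21.6 and 27.2 in the Irf8 mutant. All 4 cDC1 libraries were far above all 4 cDC2 libraries, and the wild-type difference was 3.93-fold (log2 difference 1.98, SE 0.16, adjusted p = 9.52e-06). With the trend over principal transcript length removed the difference was 1.47 (adjusted p = 1.07e-05). Cox7a2, the widely expressed form of subunit 7a, was at 81.6 and 65.9 CPM in wild-type cDC1 against 29.0 and 27.8 in wild-type cDC2, and at 62.4 and 69.1 (cDC1) against 25.7 and 27.9 (cDC2) in the mutants (wild-type log2 difference 1.38, SE 0.15, adjusted p = 5.76e-05). Cox7c was at 90.5 and 59.5 CPM in wild-type cDC1 against 30.7 and 34.7 in wild-type cDC2, and at 67.2 and 67.9 (cDC1) against 28.6 and 35.8 (cDC2) in the mutants, a wild-type log2 difference of 1.2 (SE 0.20).

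The most abundant members of complex IV had smaller differences, and their direction in wild type turned in at least 1 removal of the length trend. Cox6a1, the first by level at 223 FPKM, was at 228 and 180.4 CPM in wild-type cDC1 against 135 and 128 in wild-type cDC2, and at 157 and 180.3 (cDC1) against 116 and 122 (cDC2) in the mutants (wild-type log2 difference 0.64, SE 0.14, adjusted p = 0.00701). Cox8a, next at 166 FPKM, was at 138 and 117 CPM in wild-type cDC1 against 88.7 and 91.6 in wild-type cDC2, and at 102 and 116 (cDC1) against 75.3 and 89.1 (cDC2) in the mutants (wild-type log2 difference 0.50, SE 0.14, adjusted p = 0.0228). The cell types did not overlap for either gene. Cox6b1 was at 136 and 107 CPM in wild-type cDC1 against 77.8 and 75.2 in wild-type cDC2, and at 91.0 and 107 (cDC1) against 68.5 and 68.0 (cDC2) in the mutants. Cox4i1, the widely expressed form of subunit 4, was at 293 and 233 CPM in wild-type cDC1 against 176 and 158 in wild-type cDC2, and at 196 and 239 (cDC1) against 147 and 145 (cDC2) in the mutants. Their wild-type log2 differences were 0.67 (SE 0.15) and 0.66 (SE 0.15). With the trend over principal transcript length removed, all 4 of these genes turned negative, Cox8a to -0.37 (adjusted p = 0.0253), Cox6a1 to -0.21, Cox6b1 to -0.14 and Cox4i1 to -0.02. With the trend over exon length removed, only Cox8a of these 4 genes turned in wild type. For the others the direction turned only in the removal chosen after the data were seen.

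Paralogues known from muscle, lung or testis were low in all groups, at most 4.55 CPM in any library (Cox6b2). Cox6a2, the heart and skeletal muscle form, was at 0.138 and 0.171 CPM in wild-type cDC1, 0.546 and 0.320 in wild-type cDC2, 0.275 and 0.313 in the cDC1 of the Zeb2 mutant and 0.308 and 0.408 in the cDC2 of the Irf8 mutant. Cox7a1, the muscle form of subunit 7a, was between 0.0355 and 0.432 CPM in every library. Cox6b2, known from testis, was at 2.33 and 2.89 CPM in wild-type cDC1, 3.47 and 2.66 in wild-type cDC2, 2.06 and 1.81 in the cDC1 of the Zeb2 mutant and 4.55 and 3.47 in the cDC2 of the Irf8 mutant. It was the 1 member lower in Zeb2 mutant cDC1 than in Irf8 mutant cDC2 (log2 difference -1.05, SE 0.32, adjusted p = 0.031). The call was lost without any 1 of 5 libraries (either wild-type cDC2, either Zeb2 mutant, or Irf8 mutant replicate 2) and without the filter on low counts. In wild type its libraries overlapped (log2 difference -0.23, SE 0.31, adjusted p = 0.635). Cox4i2, known from lung, had 21 counts over the 8 libraries, Cox8c had 8 and Cox8b had 1. Cox7b2 and Ndufa4l2 had 0 counts, as did a further gene row that carries the symbol Atp5o, and 0 counts in a library allow up to 0.0512 to 0.0608 CPM (3 counts, counting error only). Cox7a2l, related to Cox7a2 and known as a factor that joins complexes III and IV, was at 90.9 and 69.2 CPM in wild-type cDC1 against 57.3 and 62.9 in wild-type cDC2, and at 64.0 and 74.5 (cDC1) against 54.0 and 54.6 (cDC2) in the mutants, and its wild-type log2 difference of 0.41 (SE 0.16) did not pass (adjusted p = 0.0722).

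In complex V, 15 of 17 tested members rose and 0 fell, with a median log2 difference of 0.92. Atp5e, the epsilon subunit of the central stalk (ENSMUSG00000016252, chromosome 2, 174461072 to 174464105), was at 122 and 88.5 CPM in wild-type cDC1 against 32.7 and 32.7 in wild-type cDC2, and at 80.5 and 94.9 (cDC1) against 24.5 and 31.9 (cDC2) in the mutants. The cell types stood well apart, and the wild-type difference was 3.22-fold (log2 difference 1.69, SE 0.19, adjusted p = 8.05e-05). Atp5b and Atp5a1, the beta and alpha subunits that form the catalytic head, were the most abundant at 233 and 220.4 FPKM. Atp5b was at 1260.5 and 1163 CPM in wild-type cDC1 against 872 and 813 in wild-type cDC2, and at 1035 and 1082 (cDC1) against 859 and 795 (cDC2) in the mutants (wild-type log2 difference 0.52, SE 0.12, adjusted p = 0.0071). Atp5a1 was at 781 and 728 CPM in wild-type cDC1 against 662 and 645 in wild-type cDC2, and at 686 and 697 (cDC1) against 693 and 631 (cDC2) in the mutants (wild-type log2 difference 0.21, SE 0.12, adjusted p = 0.219). Atp5b thus passed and Atp5a1 did not, although both wild-type cDC1 libraries of Atp5a1 were above the cDC2 ones. Atp5d, the delta subunit of the central stalk, was at 179.6 and 149 CPM in wild-type cDC1 against 166 and 155 in wild-type cDC2, overlapping, and at 126 and 146 (cDC1) against 184 and 165 (cDC2) in the mutants, where the cDC1 libraries were lower (log2 difference -0.36, SE 0.14, adjusted p = 0.0888).

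The genes for the c-ring, the rotor in the membrane, encode 1 mature protein from 3 genes. Atp5g1 was at 103 and 88.0 CPM in wild-type cDC1 against 42.5 and 41.5 in wild-type cDC2, and at 69.7 and 76.0 (cDC1) against 39.1 and 41.1 (cDC2) in the mutants (wild-type log2 difference 1.19, SE 0.13, adjusted p = 8.09e-05). Atp5g3 was at 249.99 and 184 CPM in wild-type cDC1 against 88.2 and 96.7 in wild-type cDC2, and at 173 and 188 (cDC1) against 96.2 and 102 (cDC2) in the mutants (wild-type log2 difference 1.23, SE 0.16, adjusted p = 1.95e-04). Atp5g2 was at 54.3 and 43.1 CPM in wild-type cDC1 against 33.5 and 35.03 in wild-type cDC2, and at 38.8 and 44.7 (cDC1) against 30.5 and 31.5 (cDC2) in the mutants (wild-type log2 difference 0.51, SE 0.15, adjusted p = 0.0298). All 3 rose, and per length Atp5g3 was the most abundant in wild-type cDC1 at 101 FPKM, against 29.5 for Atp5g2 and 19.8 for Atp5g1. In wild-type cDC2 the same values were 40.9, 19.8 and 8.25. Sequences of these genes are alike in their coding part, so the split of reads between them is uncertain. Atp5mpl, a small membrane subunit, was at 49.7 and 35.3 CPM in wild-type cDC1 against 13.5 and 15.99 in wild-type cDC2, and at 37.9 and 41.6 (cDC1) against 14.4 and 17.2 (cDC2) in the mutants (wild-type log2 difference 1.53, SE 0.20, adjusted p = 2.04e-04). Atp5l, another membrane subunit, whose promoter held NRF1 and ETS letters, was at 64.0 and 45.9 CPM in wild-type cDC1 against 29.4 and 32.8 in wild-type cDC2, and at 45.1 and 49.8 (cDC1) against 26.6 and 29.9 (cDC2) in the mutants (wild-type log2 difference 0.82, SE 0.17, adjusted p = 0.00516). Its call did not remain with the trend over principal transcript length removed (-0.06). The 4 small membrane subunits all rose (median 1.22), as did the 4 of the peripheral stalk (median 0.88). Of the 5 in the catalytic head and central stalk, 3 rose (median 0.52). These groups were made after the values were seen and have no test.

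The same contrast of cell types was measured again in the mutant libraries. Their levels are not part of the wild-type comparison, but the fit shares 1 estimate of spread over all 8 libraries, and the wild-type count was 59 without either Zeb2 mutant library. Genotype differs there too, and its part cannot be told apart from that of cell type. Of the 79 members, 49 were higher in Zeb2 mutant cDC1 than in Irf8 mutant cDC2 (background 12.8%) and 1 was lower, Cox6b2 (background 15%). The median log2 difference was 0.68 over the members and -0.02 over all tested genes. Complex I had 22 of 36 higher, complex II 2 of 4, complex III 6 of 8, complex IV 7 of 14 and complex V 12 of 17. All 49 were also higher in the wild-type comparison, and 13 passed there alone, which does not show that they differ between the comparisons. Cox7b was 3.48-fold higher (log2 difference 1.80, SE 0.16, adjusted p = 1.78e-05), Atp5e 3.11-fold (log2 difference 1.64, SE 0.19, adjusted p = 1.02e-04) and Ndufb11 2.599-fold (log2 difference 1.38, SE 0.15, adjusted p = 7.39e-05). Both mutant cDC1 libraries lay above both mutant cDC2 libraries in 72 members (32.2% of all genes) and below in 4 (33.6%). Across the 79 members the log2 differences of both comparisons had a Pearson r of 0.91, a description over genes that share libraries, and with them depth and the length trend. With the length trends removed the counts were 40 higher and 3 lower (exon length, background 12.2% and 16.3%) and 26 higher and 4 lower (principal transcript, background 12.8% and 16%). Among those lower under the latter were Cox6b2, Atp5d and Cox5a. Fewer members were higher without Zeb2 mutant cDC1 replicate 3, which leaves 1 library in that group. No background share is set beside that fit, so the fall is not a result about the members.

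**Figure D3:**
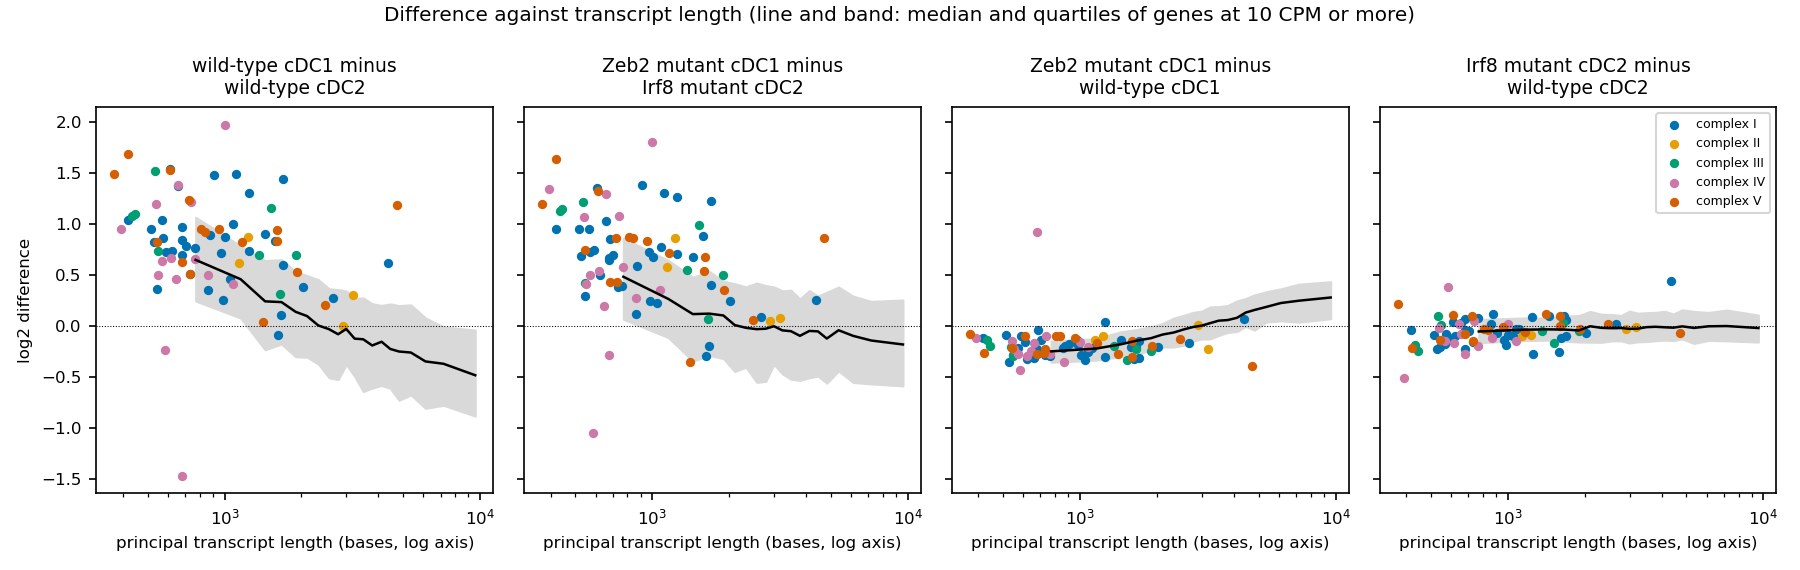
Log2 difference (y axis) against principal transcript length (bases, log axis) in 4 comparisons. The line and band are the median and quartiles of 20 length bins of the 8172 genes at 10 CPM or more, and points are the 79 members by complex. Many members are shorter than the median of the shortest bin (771 bases), where the line stands at 0.65 in the first panel, and most lie above the line there.

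Within each class of exon length a larger share of members than of other genes rose in the wild-type comparison. Over the genes at 10 CPM or more, 53.4% of those under 1 kb rose, 45.1% at 1 to 2 kb, 28.1% at 2 to 4 kb and 16.2% above 4 kb. Among the members these shares were 84.2% (19 genes), 83.9% (31), 73.7% (19) and 60% (10). By principal transcript, 59.2% of genes and 87.2% of the 47 members under 1 kb rose, and 36.1% of genes and 80% of the 25 members at 1 to 2 kb. At 2 to 4 kb by that measure 19.8% of genes and 0% of the 5 members rose, so the share of members was not above that of genes there. The median log2 differences of that class were -0.06 for genes and 0.27 for the 5 members. Over 4 kb 13.2% of genes and 50% of the 2 members rose. Among the members themselves rho was -0.27 with exon length and -0.34 with principal transcript length (n = 79).

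**Figure D4:**
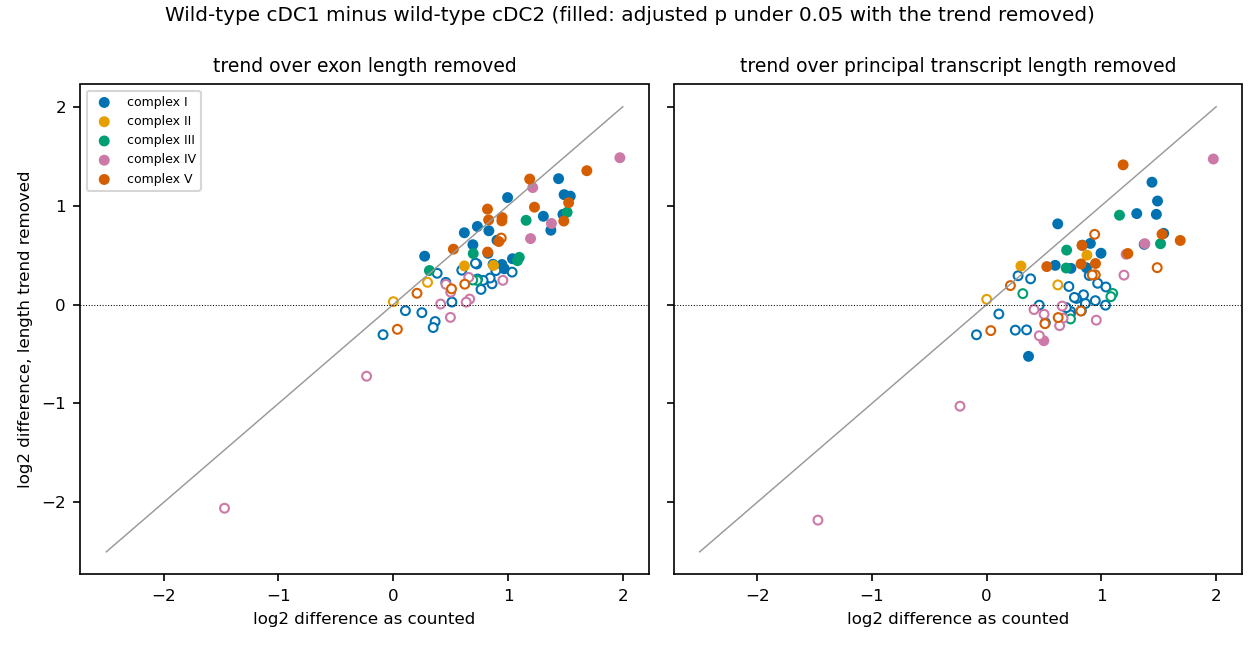
Log2 difference of the members in the wild-type comparison as counted (x axis) and with a smooth trend over length removed (y axis), for exon length (left) and principal transcript length (right). The grey line marks equal values and filled points passed an adjusted p of 0.05 with the trend removed. Most points fall below the line, and 43 (left) and 30 (right) stay filled above 0.

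The members whose calls did not depend on any choice tried can be listed. How many of all tested genes would do the same was not counted, so the counts that follow have no background share. In wild type, 24 members were called higher under all 16 alternatives, and 21 in the mutants, with 19 in both. Among those 19 were Ndufa4, Ndufa12, Ndufb11 and Ndufs4 of complex I, Sdhd, Uqcrb and Uqcrq, Cox6c, Cox7a2 and Cox7b of complex IV, and Atp5e, Atp5g1, Atp5g3 and Atp5mpl of complex V. With the trend over principal transcript length removed, the number of members higher in wild-type cDC1 was 13 in complex I (28 as counted), 2 in complex II (2), 4 in complex III (7), 3 in complex IV (10) and 8 in complex V (15). Ndufa11 (-0.52, adjusted p = 0.0184) and Cox8a were the 2 that became lower. Other calls named above did not pass in some fits that leave 1 library in a group. The share of all genes called can change in such a fit as well. Cox8a and Atp5g2 did not pass in wild type without wild-type cDC1 replicate 2, or without either wild-type cDC2 library. Their log2 differences there ran from 0.32 to 0.56, beside 0.50 and 0.51 with all libraries. Sdhb, Cox6a1, Cox4i1 and Atp5b did not pass without wild-type cDC2 replicate 3. Their log2 differences were then 0.58, 0.62, 0.60 and 0.49.

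No member passed the test between Zeb2 mutant and wild-type cDC1. edgeR called 0 of 79 higher and 0 lower (background 0.0145% and 0.0533%), and DESeq2 also called 0 and 0. In edgeR 5 members had an unadjusted p under 0.05, as did 2176 of the 20631 genes tested. The log2 differences were negative in 75 of 79, with a median of -0.21 (all genes -0.03), and the smallest adjusted p was 0.350 (Atp5g1, with a log2 difference of -0.39). This lean rested on 1 library. Without wild-type cDC1 replicate 2 the median over the members was -0.00019, and without replicate 3 it was -0.34, with 1 member, Atp5h, called lower (-0.48, adjusted p = 0.0446). Both Zeb2 mutant libraries lay below both wild-type libraries in 27 members (19.8% of all genes did so) and above in 2 (19.2%). In this comparison the genes at 10 CPM or more followed exon length with the opposite sign (rho 0.48), while rho was -0.05 over the members. Such genes under 1 kb in exon length had a median of -0.21, as did the 19 members of that class. Over 4 kb the medians were 0.09 for genes and -0.20 for the 10 members. By principal transcript under 1 kb they were -0.25 for genes and -0.21 for the 47 members. Neutrophil markers summed to 57.7 to 82.6 CPM in the mutant libraries and 0.479 to 9.50 in the wild-type ones, and their part was not tested.

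**Figure D5:**
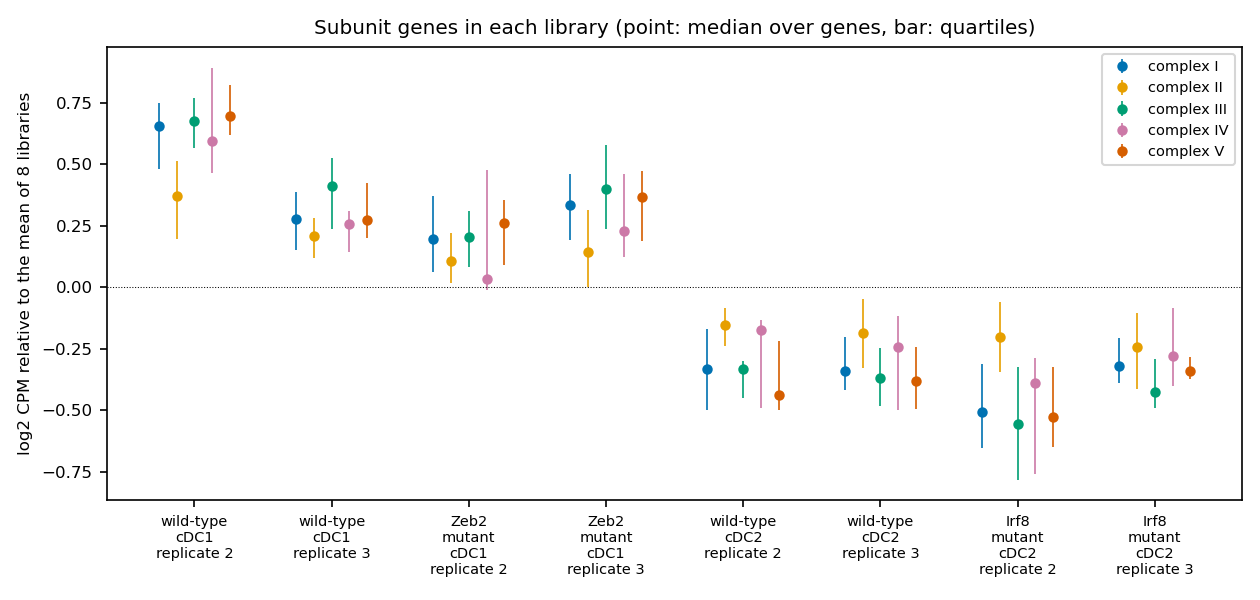
Log2 CPM of the members relative to their mean over the 8 libraries (y axis), in each library (x axis), by complex. Points are medians over genes and bars quartiles. Wild-type cDC1 replicate 2 has medians of 0.37 to 0.70 and is above the other 3 cDC1 libraries (0.03 to 0.41) within each complex, and the medians of all cDC2 libraries lie below 0.

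No member passed between Irf8 mutant and wild-type cDC2 either. edgeR called 0 of 79 in each direction (background 0% and 0%), and DESeq2 called 0 and 0. In edgeR 0 members had an unadjusted p under 0.05, where 1313 of the 20631 genes tested did. The median log2 difference was -0.05, with 26 positive and 53 negative values, and the smallest adjusted p was 0.822. Summed over all members, the wild-type cDC2 libraries stood at 5843 and 5747 CPM and the Irf8 mutant libraries at 5617 and 5667. Both mutant libraries were beyond both wild-type ones in 2 members on the high side (19.6% of all genes) and 25 on the low side (19.7%). Neutrophil markers summed to 27.5 to 83.6 CPM in the mutant libraries and 0.382 to 14.3 in wild type, and erythroid markers reached 70.3 CPM in mutant replicate 2 against 3.94 to 12.2 in the other cDC2 libraries. The difference between the effect in the Zeb2 mutant and that in the Irf8 mutant, tested as its own contrast, was called for 0 of 79 members in each direction (background 0% and 0.0194%). DESeq2 called 0 and 0 there. In edgeR 0 members had an unadjusted p under 0.05, where 1573 of the 20631 genes tested did, and the smallest adjusted p was 0.694.

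Other genes of the pathway did not move as one, and their counts are read beside the 14.2% of all tested genes that rose and the 15.9% that fell. Of the 13 subunits encoded by mitochondrial DNA, 11 were higher in wild-type cDC1 and 0 lower (median log2 difference 2.09, beside 0.82 for the nuclear members). Their summed level was 2425 and 2342 CPM in wild-type cDC1, 539 and 678 in wild-type cDC2, 2547 and 2563 in cDC1 of the Zeb2 mutant, and 694 and 869 in cDC2 of the Irf8 mutant. In the mutant comparison 11 of 13 were again higher (median 1.65). Of 47 assembly factors, which help build the complexes, 14 rose and 3 fell (median 0.46). Ndufaf6 rose from 4.07 to 17.9 CPM and Tmem70, needed for complex V, from 16.5 to 53.9, while Cox17, a copper chaperone of complex IV, fell from 20.9 to 9.21. Of 15 electron carriers and their makers, 4 rose and 1 fell: Cycs, which encodes cytochrome c, was at 38.7 CPM in cDC2 and 117 in cDC1 (adjusted p = 4.79e-05), and Coq8a of the ubiquinone pathway was at 70.9 and 10.5. Ndufab1, the acyl carrier subunit of complex I outside the naming rule, rose from 15.6 to 29.8 CPM.

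The citric acid cycle, which supplies NADH and succinate, had 2 of 13 genes higher in wild-type cDC1 and 2 lower (median 0.17), shares near the background. Suclg1 (68.5 CPM in cDC2, 132 in cDC1) and Sucla2 (52.9 and 89.9), both of succinyl-CoA ligase, rose. Mdh2, mitochondrial malate dehydrogenase, fell from 1174 to 346 CPM (adjusted p = 7.16e-06), and Dlst fell from 160.4 to 116. Of 14 regulators of mitochondrial biogenesis, 1 rose (Tfb1m, 3.26 CPM in cDC2 and 6.21 in cDC1) and 4 fell. Nrf1 stood at 74.6 CPM in cDC2 of wild type and 51.1 in cDC1, and Gabpb1, the partner of GABPA, at 72.3 and 28.9. The coactivators Ppargc1a (5.37 and 0.0855 CPM) and Ppargc1b (2.21 and 0.532) fell as well. In the mutants Ppargc1a was again lower in cDC1 (0.0553 CPM, against 7.41 in cDC2), whereas Ppargc1b was at 2.90 CPM in cDC1 and 1.503 in cDC2 and did not pass (log2 difference 0.95, adjusted p = 0.247). Outside respiration, 49 of 77 mitochondrial ribosomal protein genes (median 0.64) and 63 of 81 cytosolic ribosomal protein genes (median 0.81) rose and 0 fell. As counted, gains of like size were thus also measured in genes outside the respiratory chain. With the trend over principal transcript length removed, 28 mitochondrial ribosomal genes rose and 0 fell (median 0.39). Of the cytosolic ones 23 then rose and 5 fell (median 0.22). With exon length these counts were 40 and 0, and 47 and 0. The subunits of mitochondrial DNA stayed at 11 higher and 0 lower in both removals. Without wild-type cDC1 replicate 2 the counts higher and lower were 11 and 0 (subunits of mitochondrial DNA), 10 and 3 (assembly factors), 3 and 1 (electron carriers), 2 and 2 (citric acid cycle), 0 and 3 (regulators), 31 and 0 (mitochondrial ribosome) and 42 and 0 (cytosolic ribosome). In the mutant comparison (background 12.8% and 15%) the counts higher and lower were 15 and 3 (assembly factors), 4 and 1 (electron carriers), 2 and 2 (citric acid cycle), 0 and 3 (regulators), 37 and 0 (mitochondrial ribosome) and 39 and 0 (cytosolic ribosome). Fewer assembly factors and ribosomal genes were higher without Zeb2 mutant cDC1 replicate 3, which leaves 1 library in that group. No background share is set beside that fit, so the fall is not a result about the lists. The counts without wild-type cDC1 replicate 2 are to be read beside the lower shares of all genes called in that fit, given above with the wild-type comparison.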

How the data were processed

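Libraries were made from 10 ng of RNA of high integrity (score above 8.0) with the SMARTer Ultra Low kit, whose reads carry no strand, and read as pairs of 150 bases, per the labels' protocols. The tools named in the submitters' processing notes are STAR, Subread featureCounts, bcl2fastq and Salmon. The builds named are GRCm38 and mm10. How the authors set strand and treated reads shared between genes was not found in the labels, so paralogues and pseudogene copies are uncertain. Each deposited table gives raw counts by gene. Its deposited CPM values were checked to be those counts relative to the library total, and its deposited FPKM values the CPM per kilobase of exon. CPM in the text is the count recomputed with TMM scaling, and FPKM is the deposited value, used only to compare genes. Symbols came from GENCODE M21 (55227 of 55487 IDs matched).

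Counts were filtered with filterByExpr (20631 genes kept) and fitted with edgeR 4.0.16 in R 4.3.3, 1 coefficient per group over 8 libraries (4 residual degrees of freedom); calls are Benjamini-Hochberg adjusted p under 0.05. Standard errors are the log2 difference over the square root of F. Levels are means ± SD, n = 2. The length trend is a lowess curve (span 0.3, genes at 5 CPM or more) of each library's counts over the gene mean, used as an offset. The test and this removal were run on simulated data. The length simulation held a smooth trend and no true differences. It therefore cannot show how the removal treats a true difference that runs along length. Alternatives were DESeq2 1.42.0, its size factors, no filter, only the groups compared, the replicate block, each library left out, and 2 chosen after the data were seen (principal transcript length, a crossed block). Named members were the 2 most abundant per complex by FPKM, up to 3 called per complex, direction and comparison by adjusted p, and paralogue pairs; Ndufv1, Ndufv2, Ndufs3, Ndufb6, Atp5l, Ndufs1, Ndufs8, Ndufs4, Sdhc, Uqcrc1, Atp5d, Atp5h, Ndufa11, Cox5a and the members listed as called under all alternatives were named after their values were seen, as were examples from the other lists. Members and lists were chosen with earlier results of these data known. Values of 1 member of complex I are not reported here.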

Additional observations from a re-analysis of the deposited data

How the results depend on the processing

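Counts of members called in the wild-type comparison were 56 to 63 higher and 0 lower with DESeq2, its size factors, no filter, only the groups compared, or the replicate block (57), and 43 with the trend over exon length removed. In the mutant comparison they were 47 to 56 higher (block 47) under the same settings, and 40 with exon length. With principal transcript length the wild-type counts became 30 higher and 2 lower and the mutant counts 26 and 4; exon length gave 3 lower in the mutants and no filter gave 0. Leaving out 1 library at a time gave 45 to 66 and 31 to 60 higher, 0 lower in wild type, 0 to 2 lower in the mutants, and 0 to 1 lower between Zeb2 mutant and wild-type cDC1. The fit of only the groups compared gives no value for the difference of effects. A library left alone in its group was assumed to vary like the other groups. The share of all genes called can change in such a fit as well, so its counts alone are not a result about the members. Signs turned as follows, and beyond the length offset itself the cause was not tested. With exon length Cox8a was at -0.13 in wild type. With principal transcript length the complex IV median was -0.12 in wild type and -0.021 in the mutants; in wild type Cox5b was at -0.10, Ndufs3 -0.0058, Ndufa1 -0.0063, Uqcrh -0.15, Cox6a1 -0.21, Cox6b1 -0.14, Ndufb7 -0.071, Cox4i1 -0.015, Atp5l -0.065, Cox5a -0.32, Atp5h -0.13, Ndufa6 -0.10, Atp5g2 -0.19, Ndufb10 -0.18, Ndufa7 -0.063, Cox8a -0.37 and Ndufb8 -0.031, and in the mutants Cox6a1 was at -0.16, Cox6b1 -0.084 and Ndufa7 -0.0024. The complex I median was 0.0087 for Zeb2 mutant minus wild-type cDC1 without wild-type cDC1 replicate 2 (lowest -0.35, without its replicate 3), and 0.0082 for Irf8 mutant minus wild-type cDC2 without Irf8 mutant replicate 2. Same-numbered libraries did not deviate together (correlations from -0.18 to 0.07 over 8399 genes), so the numbers were not taken to pair samples; a block with the wild-type cDC1 numbers exchanged gave 63 higher in wild type and 53 in the mutants. With 2 libraries a group, small differences are not detectable. The lowest count of any of the 74 members at 5 CPM or more in every library was 433, so counting error was small for these.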

Other observations

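Of the tested members at 10 CPM or more, 3 lie on the X chromosome, Cox7b, Ndufb11 and Ndufa1, and all 3 were higher in wild-type cDC1 (log2 differences 1.98, 1.48 and 1.04). The 252 X-linked genes at that level had a median of -0.14, and 20.2% of them rose, against -0.04 and 23.2% of the 8147 others. The place of these 3 members on the X chromosome was noticed after the values were seen, and its part was not tested.

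Rows named for subunits that are not protein-coding lay outside the list. Of 12 such rows, 11 are processed pseudogenes, at most 6.48 CPM in any library (Cox6c2). The exception was Ndufb1-ps, annotated in GENCODE M21 as a non-coding RNA, which was at 53.9 and 41.6 CPM in wild-type cDC1, 18.4 and 19.5 in wild-type cDC2, 43.2 and 52.4 in cDC1 of the Zeb2 mutant and 16.4 and 25 in cDC2 of the Irf8 mutant, a level in the range of the members. Every cDC1 library was above every cDC2 library for this row.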
